A study of Mus musculus with 13 samples.

Results

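The genes Spry1, Spry2, Spry4, Spred1, Spred2, Dusp4, Dusp5, Dusp6, Etv4 and Etv5 are induced by ERK signalling and most of them act back on it. They were followed by symbol through the promoter counts and through every H3K27me3 region that overlaps one of their promoter rows. The 10 genes, of 53664 with a promoter row, had 16 promoter rows and 18 of the 57909 regions. The genes were selected on the H3K27me3 log2 fold changes of knockout over wild-type cells, so their values in that contrast are given as a description, with no p.

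Fibroblast growth factors and other ligands of receptor tyrosine kinases activate RAS, which switches on the RAF, MEK and ERK kinase cascade. In mouse embryonic stem cells (ESCs), autocrine FGF4 acting through ERK primes cells to leave the naive state. ERK raises the transcription of its own inhibitors, and their RNA levels are commonly read as a gauge of pathway output. H3K27me3, trimethylation of lysine 27 of histone H3, is laid down by Polycomb repressive complex 2 at promoters that are silent or poorly transcribed.

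The series measured H3K27me3 and total H3 by ChIP-seq in cells lacking SAFB and its paralog SAFB2, nuclear RNA-binding proteins, and in cells that have them. All cells were male ESCs of mixed CAST and B6 strain origin with the Rosa26-RMCE cassette, given doxycycline for 3 days and fixed in 0.6% formaldehyde. The labels do not say what the doxycycline induced. For H3K27me3 there were 4 libraries of safb1/2 double ko cells (DKO), replicate 1 from clone 4 and replicates 2 to 4 from clone 13, and 5 WT libraries. For total H3 there were 2 DKO libraries, both of clone 13, and 2 WT libraries, so the DKO is represented by 2 clones at most. DKO replicate 3 and WT replicate 4 carry the word Old in their labels, and DKO replicate 4 and WT replicate 5 the word New. The library names of WT replicates 1, 4 and 5 share a stem and those of WT replicates 2 and 3 have others, and the labels do not say whether these are separate clones. The deposited columns are tagged b6 with no statement on how CAST reads were treated, so a CPM may stand for 1 allele or for both. The 4 with those words are called the Old/New libraries and the other 5 the unmarked ones. Nothing in the labels says that replicates were separate cultures, so p-values measure no more than library-to-library spread, possibly technical.

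Promoter rows held 798466 to 1427771 counts per H3K27me3 library, and regions held 1818647 to 3134799 per H3K27me3 library and 525847 to 736566 per total H3 library. The Safb and Safb2 promoter rows held 0 counts over the DKO libraries and 4 (Safb) and 3 (Safb2) over the WT libraries, too few to check the labels. RNA was not measured, so the cell type was checked through the mark. Levels are in CPM, counts per 1000000 of those a library held in all promoter rows, or in all regions for region values, scaled by TMM. CPM of a row and of a region thus have different denominators and are not comparable. Of 8 genes that ESCs express, Nanog was at 0 CPM, Zfp42 at 0.162, Sall4 at 0.0784, Tdgf1 at 3.73, Pou5f1 at 4.37 and Sox2 at 6.95 (mean over 9 libraries), while Lin28a stood at 25.2 and Esrrb at 33.9 CPM. Of 8 lineage regulators, Hoxd10 stood at 363.8, T at 305.2, Hoxd13 at 290.5, Pax6 at 198.8, Olig2 at 108.9 and Foxa2 at 86.8 CPM. Gata4, whose row overlaps no other, stood at 18.9 CPM, below Lin28a and Esrrb. Nkx2-2, at 4.05 CPM, was the lowest. A level near 0 can also come from overlap with another row, where reads were not counted: the rows of Nanog, Zfp42, Sall4 and Nkx2-2 keep 76, 14, 172 and 303 bases of their own, so of these 8 ESC genes the mark is readable at Pou5f1, Sox2, Tdgf1, Lin28a and Esrrb. Of both lists, 1 gene was called, Hoxd10, a Polycomb target of the Hox cluster, at 307, 317, 294 and 294 CPM in DKO and at 382, 465, 408, 386 and 422 CPM in WT. The groups do not overlap, and the log2 fold change was -0.45 with SE 0.10 (adjusted p = 0.0084 by edgeR, called in 14 of 19 alternatives). The call ended without WT replicate 2 (-0.40, adjusted p = 0.0543 by edgeR), without the filter, with WT of one name stem and in both subsets of libraries.

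RefSeq (GRCm38.p6, the assembly also called mm10) gave 300-base promoter windows for 7 of the 10 genes. The 250 bases before the start site are printed for Spry2 and Dusp6, whose promoter rows stood highest in DKO relative to WT, for Spred1, whose regions flank the start site, and for Spry1, whose start site has regions on either side. Capitals mark CG dinucleotides, the base pair steps that are dense in the CpG islands where Polycomb marks collect.
Spry2, chr14:105896820-105897069, minus strand: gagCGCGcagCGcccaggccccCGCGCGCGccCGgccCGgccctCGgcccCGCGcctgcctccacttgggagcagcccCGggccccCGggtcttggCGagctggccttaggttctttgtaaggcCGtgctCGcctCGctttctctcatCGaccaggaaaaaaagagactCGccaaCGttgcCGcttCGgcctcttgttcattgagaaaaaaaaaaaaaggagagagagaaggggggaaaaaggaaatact
Dusp6, chr10:99262981-99263230, plus strand: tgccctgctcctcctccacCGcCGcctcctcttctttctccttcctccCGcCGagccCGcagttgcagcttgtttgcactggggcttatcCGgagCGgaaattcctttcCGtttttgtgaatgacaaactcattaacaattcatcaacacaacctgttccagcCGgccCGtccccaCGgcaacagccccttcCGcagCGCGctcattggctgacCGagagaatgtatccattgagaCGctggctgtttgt
Spred1, chr2:117120821-117121070, plus strand: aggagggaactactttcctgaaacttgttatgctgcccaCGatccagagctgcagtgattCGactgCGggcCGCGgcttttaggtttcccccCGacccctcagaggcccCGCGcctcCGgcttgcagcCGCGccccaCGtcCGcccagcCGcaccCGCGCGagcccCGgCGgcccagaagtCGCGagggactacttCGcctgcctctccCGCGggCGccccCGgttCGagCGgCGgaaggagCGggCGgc
Spry1, chr3:37639697-37639946, plus strand: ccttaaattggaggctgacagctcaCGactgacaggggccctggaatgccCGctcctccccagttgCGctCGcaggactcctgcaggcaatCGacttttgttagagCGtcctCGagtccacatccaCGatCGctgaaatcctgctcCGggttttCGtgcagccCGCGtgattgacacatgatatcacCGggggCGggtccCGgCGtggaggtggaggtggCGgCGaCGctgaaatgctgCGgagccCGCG
None of these 4 printed stretches overlapped an H3K27me3 region of its gene. Over the full 300 bases, Spred1 held 40 CG dinucleotides, Spry1 held 29, Spry2 and Dusp5 held 28 each and Dusp6 held 19, against a median of 7 over 32851 RefSeq windows. The windows of Etv5 held 37 and 19, and that of Spred2 held 17. GC content was 62.7% for Spry2, 57.3% for Dusp6, 72.3% for Spred1 and 64.3% for Spry1, against a median of 52.7%.

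Letters of 4 common promoter elements were searched on both strands of the 300 bases. CCGGAA, one form of the sites bound by ETS factors such as Etv4 and Etv5, was in 14.9% of all windows and, among the windows of the feedback genes, only in that of Spry2. Shorter and other forms of the site, such as GGAA alone, were not searched. GGGCGG, the GC box, was in 35.7% of all windows and in those of Spry1, Spred1, Spred2, Dusp5 and Etv5. TGACGTCA, the CRE, was in 1.79% of all windows and TATAAA, the TATA box, in 13.6%. A match is a description of the letters and not evidence of a bound site.

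Each promoter row covers 3001 bp around a start site, 2000 of them upstream and 1000 downstream, and reads that fell on 2 or more rows were not counted. Of the 16 rows of the feedback genes, 6 passed the filter on low counts and 10 did not. All 10 that did not pass overlap another row and keep between 0 and 812 bases of their own. Spry1, Spry4, Spred1 and Etv4 thus have no tested row and are read from their regions. Spred2 has neither a tested row nor a region. Of the tested rows, 4 were called higher in DKO and 0 lower by edgeR's quasi-likelihood test at an adjusted p under 0.05, where 0.438% of all 32647 tested rows were called higher and 0.19% lower. The rule used this contrast, so nothing is read from that count.

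Among the inhibitors that act between receptor and RAS, only Spry2 had a tested promoter row (chr14:105895819-105898819). Sprouty 2 is a membrane-associated protein that limits RAS activation by growth factor receptors. Its H3K27me3 stood at 20.2, 36.4, 34.9 and 38.9 CPM in DKO replicates 1 to 4, and at 9.81, 10.1, 21.3, 12.4 and 7.76 CPM in WT replicates 1 to 5. The groups overlap at a single point, because DKO replicate 1, the clone 4 library, lies just under WT replicate 3. The means were 32.6 ± 8.42 CPM in DKO (SD, n = 4) and 12.3 ± 5.31 CPM in WT (SD, n = 5), from 159 and 66 counts in all. The log2 fold change of 1.46, with SE 0.23, was the largest of all 32647 rows tested. It stood at 1.04 within the unmarked libraries and at 1.88 within the Old/New libraries, subsets chosen after seeing the data.

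The 3 phosphatases differed in the size of their change. Dusp6, the cytoplasmic phosphatase that removes phosphate from ERK (chr10:99261231-99264231), stood at 46.0, 61.7, 34.9 and 42 CPM in DKO and at 10.7, 21.4, 25.8, 21.9 and 19.8 CPM in WT. Every DKO library lay above every WT library, and the log2 fold change was 1.20 with SE 0.20, with 3 rows of the whole table showing a larger one. Dusp4, a nuclear phosphatase of ERK and other MAP kinases (chr8:34805297-34808297), carried the most mark of the 6 rows. It stood at 123, 168, 121 and 143 CPM in DKO and at 95.4, 117, 122, 78.7 and 79.7 CPM in WT, where DKO replicate 3 lies just under WT replicate 3. Its log2 fold change was 0.51 with SE 0.13, and its call ended without DKO replicate 2 (0.41), DKO replicate 4 (0.49), WT replicate 4 (0.44) or WT replicate 5 (0.44), and with the replicate number as a block (0.44).

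Dusp5, a nuclear phosphatase specific for ERK (chr19:53527109-53530109), stood at 35.9, 47.6, 25.1 and 35.9 CPM in DKO and at 29.4, 22.6, 37.0, 26.2 and 39.5 CPM in WT. The groups cover the same range, and only DKO replicate 2 lay above every WT library. The log2 fold change was 0.18 with SE 0.19, and 8130 rows of the table had a larger one. It stood at 0.48 within the unmarked and at -0.10 within the Old/New libraries. The Dusp5 row keeps 1546 bases free of another row, so its level is not comparable with that of the full rows.

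Etv5 is an ETS transcription factor of the PEA3 group, a direct product of FGF signalling in many tissues. The upstream of its 2 rows (chr16:22438719-22441719, on the minus strand) stood at 55.2, 50.6, 50.2 and 56.5 CPM in DKO and at 33.9, 30.2, 32.5, 23.3 and 21.2 CPM in WT. The DKO libraries lie close together and all above WT, and the Old/New libraries of WT are the lowest. The log2 fold change was 0.94 with SE 0.18. The second row (chr16:22435514-22438514) stood at 9.20, 20.2, 13.9 and 17.5 CPM in DKO and at 12.5, 5.03, 5.60, 6.56 and 4.94 CPM in WT. There WT replicate 1 lies above DKO replicate 1, and the log2 fold change of 1.11 with SE 0.30 was not called. It was called without WT replicate 1 (1.42), without DKO replicate 1 (1.28), with library totals (1.14) and with the set of libraries as a term (1.12).

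Of the 6 tested rows, 2 had every DKO library above every WT library (Dusp6 and the first row of Etv5), as did 1.74% of all tested rows. The 6 log2 fold changes were all above 0 with a median of 1.03, beside a median of -0.01 and 48.1% above 0 over all rows. The rule used this contrast, so nothing is read from these values against all rows. At the second Etv5 row, WT libraries other than replicate 1 stood at 4.94 to 6.56 CPM and DKO at 9.20 to 20.2 CPM. That row passed the low-count filter mainly through DKO, so its direction was partly set by the filter. WT replicate 3 was the highest WT library at 3 of the 6 rows and at 21.3% of all rows.

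**Figure D1:**
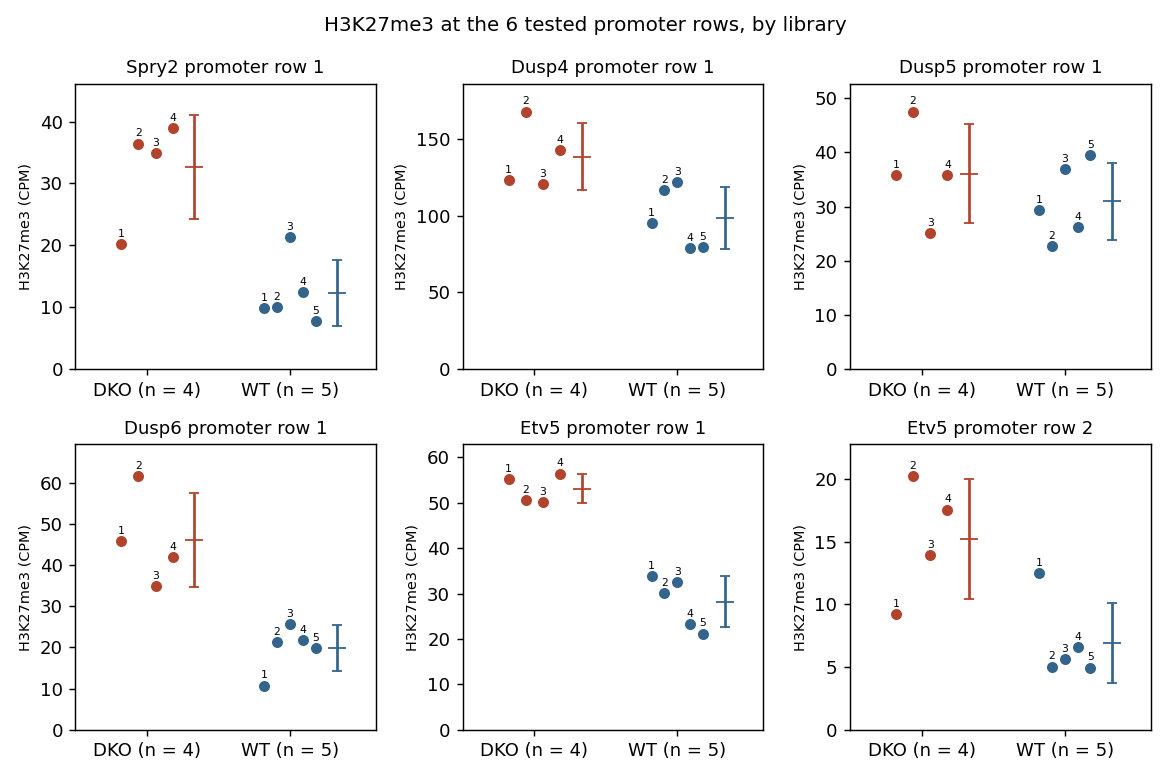
H3K27me3 in CPM at the 6 tested promoter rows, with a point per library numbered by replicate, DKO left of WT, and the mean with its SD beside the points. Dusp6 and the first Etv5 row separate the groups fully, Spry2 and Dusp4 overlap by DKO replicate 1 or 3 against WT replicate 3, and Dusp5 does not separate them.

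The regions bring in the genes whose promoter rows share reads. A region here is a stretch in the authors' union of H3K27me3 regions of both genotypes. Of the 18 regions 14 were in the authors' shared list, 4 in the DKO-specific list (1 at Spry1, both at Spry2, 1 at Spry4) and 0 in the WT-specific list. Over all regions these shares were 48.7% shared, 32.5% DKO-specific and 18.8% WT-specific. The lists divide regions by genotype, the contrast on which the genes were selected, so nothing is read from the counts beside these shares. Spred2, which recruits the RAS inhibitor neurofibromin as Spred1 does, had no region at either row. Of the others, 9 regions lie upstream and 9 downstream of the first start site, and none covers it. Later start sites of the same gene fell inside 2 regions (1 at Spry1, 1 at Spred1). Of the 13538 regions that overlap any promoter row, 42.6% hold a start site of any row. The member count took only start sites of the same gene, so it is not comparable with that share.

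**Figure D2:**
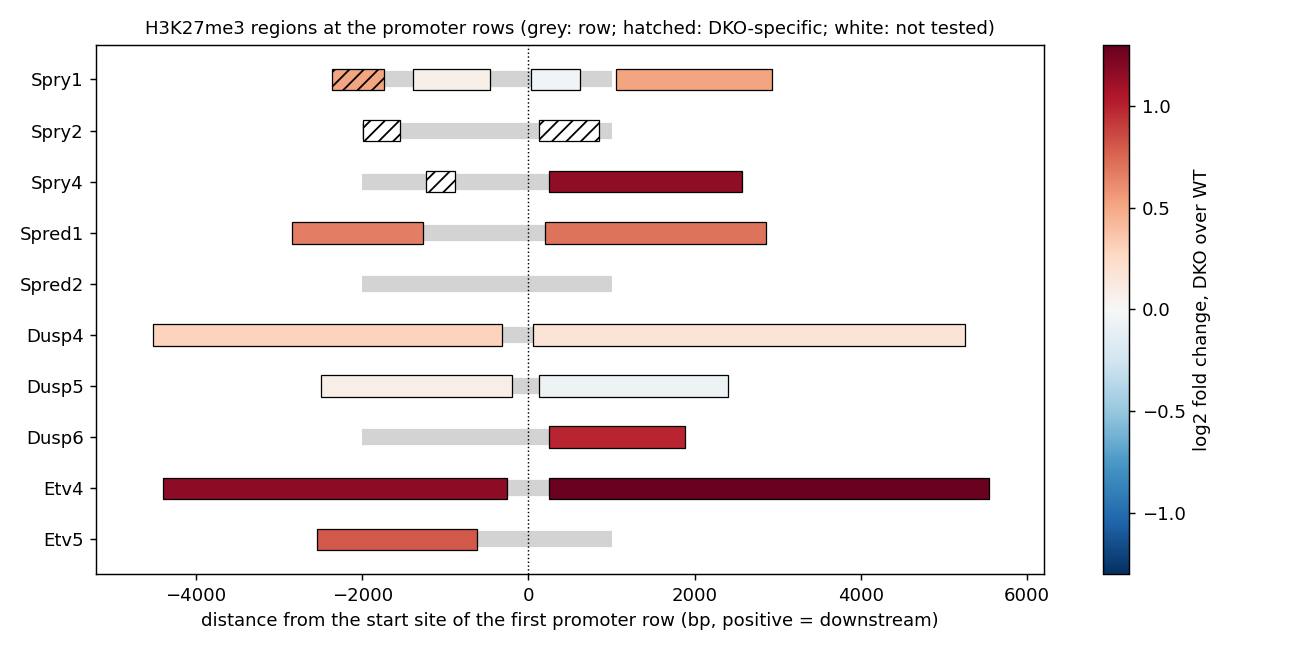
Position of the 18 regions relative to the start site of each gene's first promoter row, in bp, with the row in grey and the colour giving the H3K27me3 log2 fold change of DKO over WT. Regions lie on either side of the start site and leave it free, hatched bars mark the 4 DKO-specific regions, white bars those too low to test, and Spred2 has none.

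Of 15 regions tested 7 were called higher in DKO, at Spry4, Spred1, Dusp6, Etv4 and Etv5, and 0 lower, where 2.14% of all 40418 tested regions were called higher and 1.87% lower. In 6 of the 15 every DKO library lay above every WT library, as in 3.35% of all tested regions. Region counts and promoter counts share reads where they overlap and do not count as 2 measurements. The median log2 fold change of the 15 was 0.53, with 13 above 0, beside a median of -0.02 over all regions. The rule used this contrast at the regions too, so nothing is read from these counts or this median.

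At Spry4, another Sprouty protein with the same role, the downstream region (chr18:38598844-38601165) stood at 28.9, 27.3, 18.1 and 45.5 CPM in DKO and at 12.6, 12.3, 23.0, 10.4 and 10.9 CPM in WT. WT replicate 3 lies above DKO replicate 3, and 3 of 4 DKO libraries lie above every WT library. The log2 fold change was 1.15 with SE 0.18, and it stood at 0.81 within the unmarked and at 1.57 within the Old/New libraries. Without WT replicate 3 the value was 1.39, the highest when any 1 library was left out. The second Spry4 region and both Spry2 regions were too low to test. Summed over its 2 regions, Spry2 stood at 4.88, 11.4, 11.1 and 12.5 CPM in DKO and at 2.94, 2.24, 6.0, 2.96 and 3.21 CPM in WT. DKO replicate 1, of clone 4, lies under WT replicate 3, and the 3 clone 13 libraries lie above every WT library.

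Spred1 was called at both of its regions. The upstream one (chr2:117118523-117120108) stood at 22.4, 28.1, 23.5 and 28.3 CPM in DKO and at 23.5, 12.9, 14.5, 14.8 and 14.5 CPM in WT, with WT replicate 1 inside the DKO range. The downstream one (chr2:117121571-117124232) stood at 30.5, 33.4, 34.9 and 32.7 CPM in DKO and at 18.1, 29.7, 19.5, 18.9 and 17.4 CPM in WT. There the groups do not overlap, and WT replicate 2 is the one close to DKO. The log2 fold changes were 0.66 with SE 0.17 and 0.70 with SE 0.15. Different WT libraries were high at the 2 regions, and the sum of both separated the groups, at 58.5 ± 3.96 CPM in DKO (SD, n = 4) and 36.7 ± 4.96 CPM in WT (SD, n = 5).

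Spry1, the remaining Sprouty gene, had 4 regions and 0 called. The largest (chr3:37640998-37642877) stood at 18.3, 18.5, 21.6 and 17.2 CPM in DKO and at 11.4, 12.9, 12.5, 12.6 and 15.8 CPM in WT. Every DKO library lay above every WT library there, at a log2 fold change of 0.53 with SE 0.18. The other 3 regions had log2 fold changes of 0.53, 0.08 and -0.05 with SEs of 0.25 to 0.33. The second of them moved with the subset, to 0.55 in the unmarked and to -0.36 in the Old/New libraries.

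The phosphatases kept their order at the regions. The Dusp6 region (chr10:99263477-99265114) stood at 23.6, 27.3, 17.1 and 22.3 CPM in DKO and at 8.41, 8.96, 19, 11.1 and 9.32 CPM in WT, where WT replicate 3 lies above DKO replicate 3. Its log2 fold change was 0.99 with SE 0.19. The upstream Dusp4 region (chr8:34802773-34806984) stood at 72.4, 78.7, 70.4 and 72.2 CPM in DKO and at 63.5, 66.6, 69.0, 54.8 and 47.6 CPM in WT, where the groups do not overlap but lie close. The Dusp5 region upstream (chr19:53526617-53528913) stood at 22.8, 29.9, 18.4 and 22.9 CPM in DKO and at 22.3, 20.7, 24, 20.4 and 21.9 CPM in WT, and there the WT libraries lie within the DKO range. In log2 fold change the Dusp4 regions stood at 0.30 (SE 0.11) upstream and 0.18 (SE 0.09) downstream, and the Dusp5 regions at 0.09 (SE 0.16) and -0.07 (SE 0.15). The upstream Dusp4 region passed without WT replicate 1 (0.33), with library totals (0.36) and with the set of libraries as a term (0.32).

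Etv4, the PEA3-group relative of Etv5, had the highest log2 fold changes of the 15 tested regions before its chromosome is taken into account. Its downstream region (chr11:101779762-101785058) stood at 78.1, 105, 73.2 and 111 CPM in DKO and at 44.6, 34.7, 60.0, 26.3 and 26.7 CPM in WT. Its upstream region (chr11:101785568-101789710) stood at 72.8, 79.1, 49.8 and 78.3 CPM in DKO and at 40.4, 28.0, 42, 23.0 and 24.4 CPM in WT. At both regions the groups do not overlap, DKO replicate 3 is the lowest DKO library and WT replicate 3 the highest WT library. The log2 fold changes were 1.28 with SE 0.12 and 1.16 with SE 0.13. Per kilobase, the first of them stood at the 93.2 percentile of shared regions in DKO and at the 9.33 percentile in WT. The Etv5 region (chr16:22440342-22442267) stood at 27.3, 25.5, 23.5 and 27 CPM in DKO and at 17.2, 17.4, 16.5, 11.9 and 11.9 CPM in WT, with no overlap, at 0.81 with SE 0.17.

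Etv4 lies on chromosome 11, where both antibodies gave more reads in DKO. The median log2 fold change there was 0.41 over 2720 H3K27me3 regions, with 19.5% called higher, and 0.31 over 1672 regions for total H3, against -0.04 and -0.03 on the other chromosomes. Within chromosome 11, 19 regions had a larger H3K27me3 log2 fold change than the downstream Etv4 region and 37 a larger one than the upstream one. With an offset for the chromosome's level in each library the Etv4 regions stood at 1.04 and 0.93, below the first Spry4 region at 1.15. The other chromosomes with a member region had H3K27me3 region medians of 0.02 to 0.10.

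**Figure D3:**
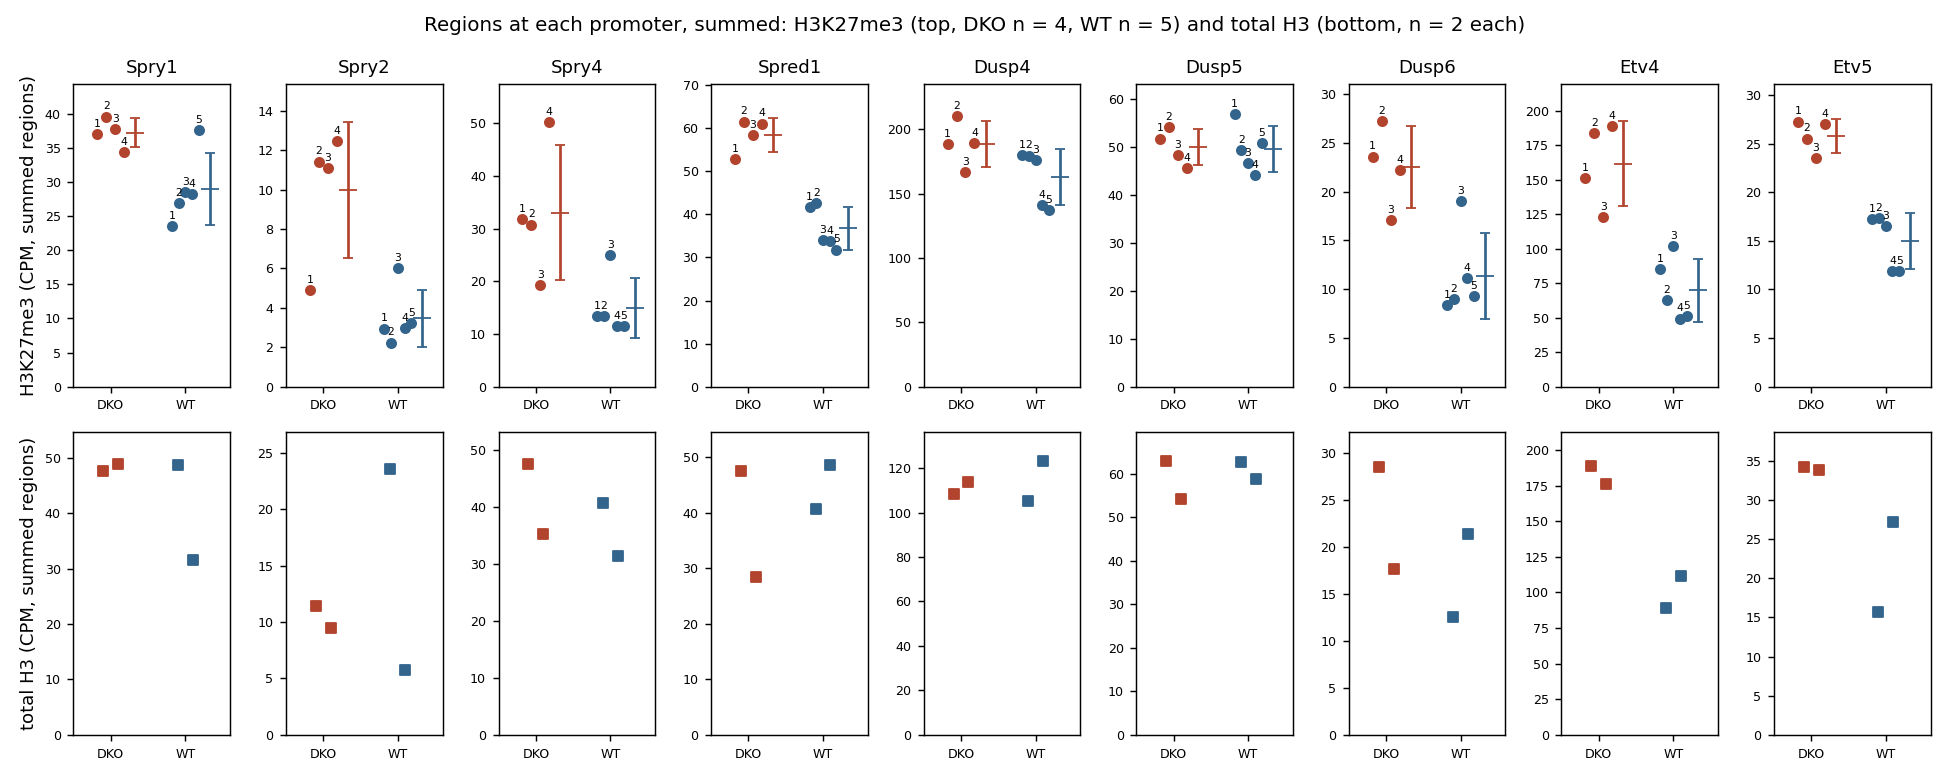
Regions of each gene summed, in CPM, with H3K27me3 in the top row (a numbered point per library, mean with SD beside it) and total H3 in the bottom row (a square per library), DKO left of WT. H3K27me3 separates the groups fully at Spred1, Etv4 and Etv5, and total H3 of both DKO libraries lies above both WT libraries at Etv4 and Etv5.

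Levels per length give the order of the genes. In DKO the summed regions held 20.1 ± 1.90 CPM per kb at Dusp4, 17.1 ± 3.26 at Etv4, 13.8 ± 2.56 at Dusp6, 13.8 ± 0.933 at Spred1, 13.4 ± 0.904 at Etv5, 12.4 ± 4.79 at Spry4, 10.9 ± 0.823 at Dusp5, 9.23 ± 0.530 at Spry1 and 8.56 ± 2.96 at Spry2 (SD, n = 4). In WT the order was Dusp4 at 17.3 ± 2.30 CPM per kb, Dusp5 at 10.8 ± 1.05, Spred1 at 8.65 ± 1.17, Etv5 at 7.77 ± 1.48, Etv4 at 7.42 ± 2.42, Spry1 at 7.18 ± 1.3, Dusp6 at 6.94 ± 2.68, Spry4 at 5.61 ± 2.13 and Spry2 at 2.98 ± 1.25 (SD, n = 5). Dusp4 was first in both genotypes and Spry2 last. In DKO, Dusp4 and Etv4, the neighbours from Dusp6 down to Dusp5, and Spry1 and Spry2 differ by less than the larger of their SDs, as do the WT neighbours from Spred1 to Spry4. Etv4 was the second in DKO and below Etv5 in WT, and Dusp5 was near the end in DKO and the second in WT.

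Total H3 came from other libraries than those that served to choose the genes, so it was tested. On chromosome 11 both antibodies gave more reads in DKO, so at Etv4 a choice on H3K27me3 may also favour high total H3. Of 12 member regions tested, 0 were called by edgeR and 0 by DESeq2, with an unadjusted p under 0.05 at 2 regions by edgeR and 1 by DESeq2. Over all 18938 regions tested, 0.0211% were called by edgeR. With 2 libraries per genotype and 8 to 130 counts per gene and library outside Spry2, which had 4 to 15, these counts limit the precision of the test. The 2 regions of low p were both at Etv4. Downstream, total H3 stood at 116 and 106 CPM in DKO and at 54.9 and 61.5 CPM in WT, which gives 0.92 on the log2 scale, SE 0.21 (adjusted p = 0.0809 by edgeR, higher in 2 of 2 DKO libraries). Upstream it stood at 72.4 and 70.5 CPM in DKO and at 34.5 and 50.1 CPM in WT, which gives 0.74, SE 0.25 (adjusted p = 0.634 by edgeR). At Etv4 both DKO libraries lay above both WT libraries for each region, as in 17.2% of all tested regions, and the downstream region had the fifth lowest p of all. On chromosome 11, where Etv4 lies, 82.2% of 1672 regions had a total H3 log2 fold change above 0, with a median of 0.31. By edgeR 291 of them had an unadjusted p under 0.05, against 877 of 17266 on the other chromosomes.

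At Etv5 total H3 stood at 34.3 and 33.9 CPM in DKO and at 15.7 and 27.2 CPM in WT, which gives 0.65, SE 0.34 (adjusted p = 0.816 by edgeR). The regions of the other genes had log2 fold changes from -0.43 at the downstream Spred1 region to 0.37 at Dusp6. Summed over regions, mean total H3 of DKO over WT was 1.82 at Etv4, 1.59 at Etv5 and 1.36 at Dusp6, while the same ratio for H3K27me3 was 2.31, 1.72 and 1.99. At Spry1 and Spry4 the total H3 ratios were 1.20 and 1.15, where those of H3K27me3 were 1.28 and 2.20. At Spred1 the ratio was 0.851 for total H3 and 1.59 for H3K27me3, and at Spry2 it was 0.716 for total H3, from 4 to 15 counts per library, and 2.87 for H3K27me3. At Dusp4 and Dusp5 the total H3 ratios were 0.975 and 0.965, and those of H3K27me3 were 1.16 and 1.01. Both ratios thus stood above 1 at 5 genes, and that of total H3 stood below 1 at 4. The part of total H3 in the H3K27me3 values was not tested other than by the fit over both antibodies.

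**Figure D4:**
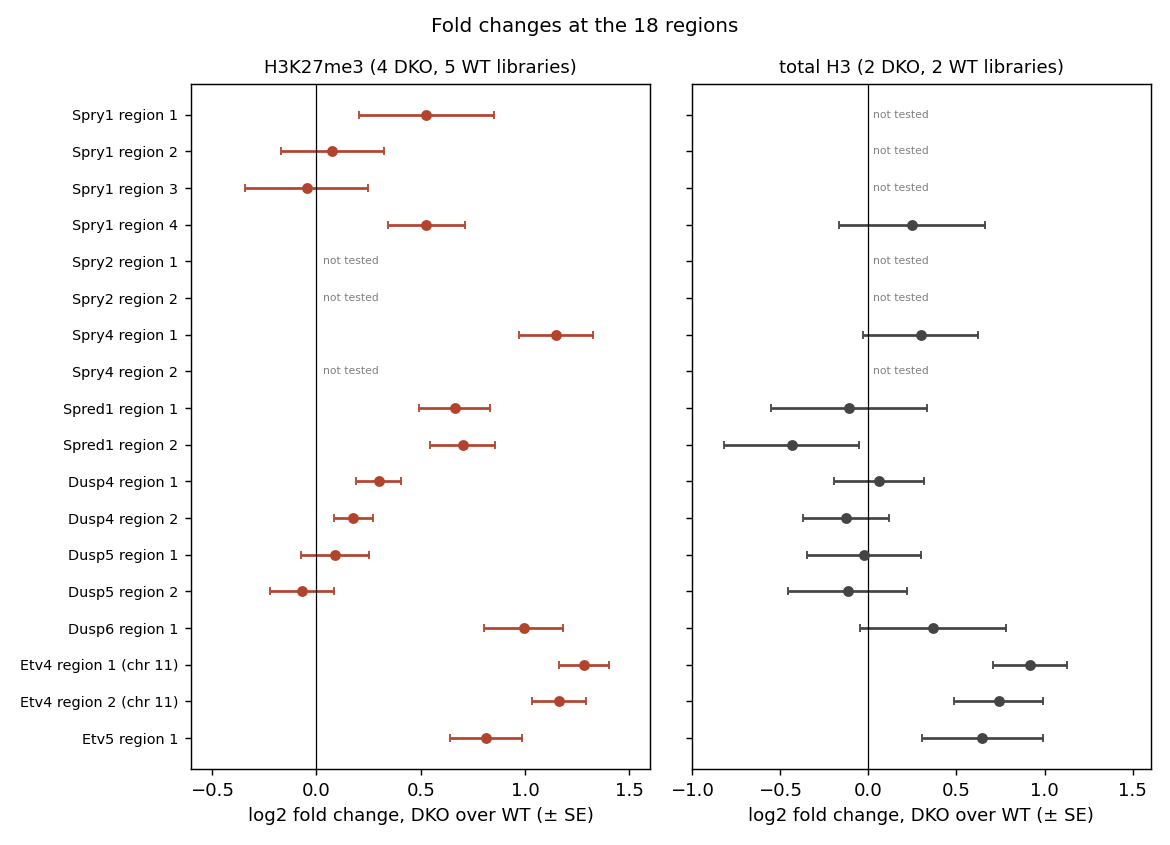
Log2 fold change of DKO over WT with its SE, for H3K27me3 at the 15 tested regions on the left and for total H3 at the 12 tested regions on the right. The Etv4 regions stand at 1.28 and 1.16 for H3K27me3 and at 0.92 and 0.74 for total H3, whereas the Spred1 regions stand at 0.66 and 0.70 against -0.11 and -0.43.

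A fit over all 13 libraries set H3K27me3 over total H3 in each genotype, on a scale where 0 is the typical H3K27me3 region. In DKO, 4 of 18 member regions were called higher, against 7.52% of all 54290 regions, and 0 lower, against 0.389%. The 4 were both regions of Spred1 (1.16 and 1.27) and both of Dusp4 (0.95 and 1.58). In WT, 2 were called higher, against 7.87% of all regions, both at Dusp4 (0.73 and 1.29). There 1 was called lower, against 1.07%, the second region of Spry4 (-2.29), which is in the DKO-specific list. The H3K27me3 libraries of this ratio also served to select the genes, so nothing is read from these counts beside the shares. Regions above 0 numbered 15 of 18 in DKO and 11 of 18 in WT. Where 0 lies depends on the scaling: with library totals the median of all regions moved to -0.56 in DKO and -0.63 in WT, and 7 of 18 member regions in DKO and 2 of 18 in WT were above 0. With library totals 1 of 18 was called higher in DKO, and in WT 1 higher and 4 lower. By DESeq2 the WT call of the second Spry4 region was lost (0 called lower), and that region held 2 to 4 H3K27me3 counts per WT library. Without total H3 DKO replicate 2, 2 regions were called in DKO, and without total H3 WT replicate 1, 1 was called higher in WT.

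The difference of that ratio between DKO and WT holds the H3K27me3 fold change on which the genes were selected, so its lean is fixed in part by the selection and it is given as a description. It was above 0 in 16 of 18 member regions, with a median of 0.31. The values were 2.63 with SE 1.1 and 1.68 with SE 0.76 at the Spry2 regions and 1.79 with SE 0.89 at the second Spry4 region, the 3 regions too low for the H3K27me3 test. They were 1.11 with SE 0.43 and 0.75 with SE 0.49 at the Spred1 regions, 0.83 with SE 0.41 at the first Spry4 region and 0.60 with SE 0.48 at Dusp6. The Etv4 regions stood at 0.35 with SE 0.27 and 0.40 with SE 0.31, and Etv5 at 0.14 with SE 0.42. No member region was called, against 0.00184% of all regions.

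The unmarked and the Old/New libraries were also fitted apart. Of 15 tested regions, 14 had a log2 fold change above 0 in the 2 DKO and 3 WT unmarked libraries, and 13 of 17 did in the 2 DKO and 2 WT Old/New libraries. Calls numbered 3 in the unmarked libraries, at the Dusp6 and Etv4 regions, against 0.0703% of all regions called higher in that fit, and 8 in the Old/New libraries, against 0.865%. Of the promoter rows the unmarked libraries called Dusp6 (1.52), where 0.0367% of all rows were called higher, and the Old/New libraries called Spry2 (1.88) and the first row of Etv5 (1.27), where 0.134% were. In the unmarked and the Old/New libraries the downstream Etv4 region stood at 0.96 and 1.80, the upstream one at 1.03 and 1.43, and the Etv5 region at 0.63 and 1.09. Both subsets are parts of the libraries on which the genes were selected, so nothing is read from their calls beside the shares. Whether the subsets differ was not tested. Without the clone 4 library the promoter row of Spry2 stood at 1.63 and that of Dusp6 at 1.20, and the Etv4 regions at 1.35 and 1.14.

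**Figure D5:**
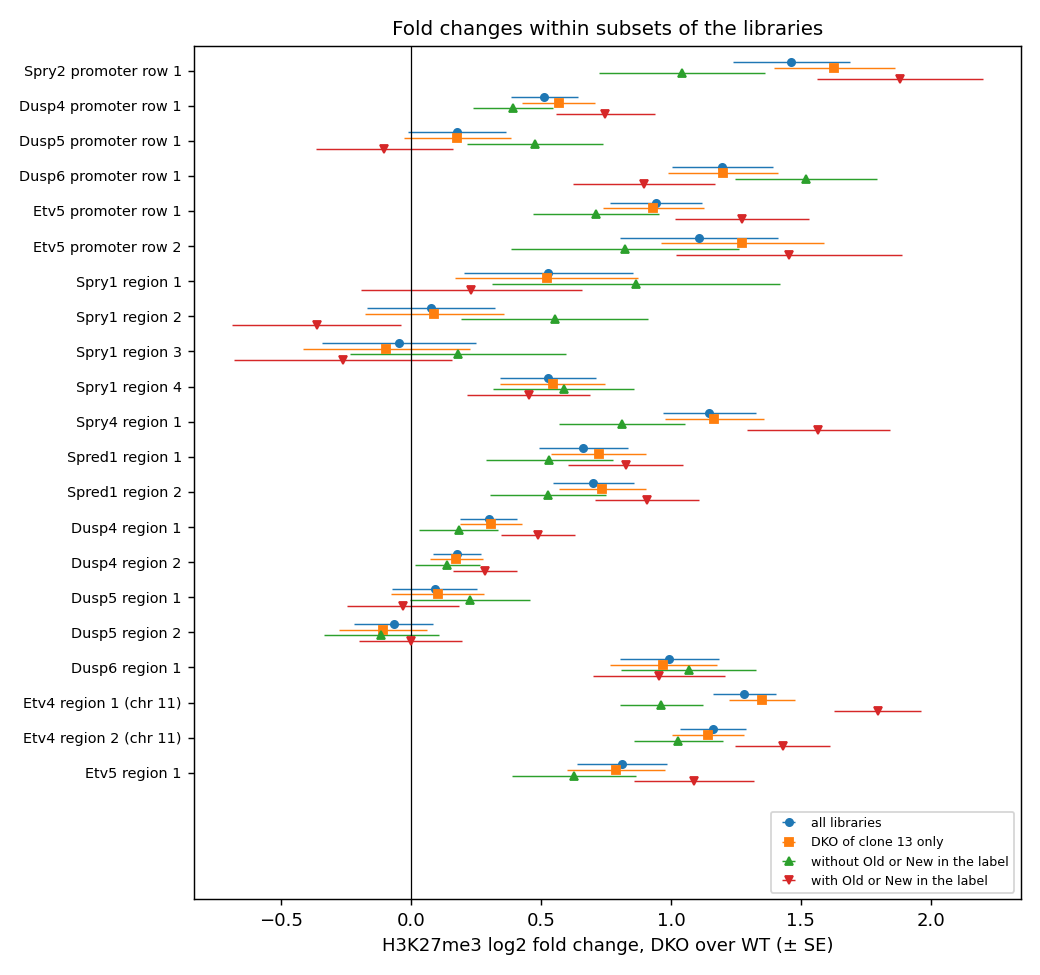
H3K27me3 log2 fold change of DKO over WT with its SE at the 6 promoter rows and 15 tested regions, in all libraries, with DKO of clone 13 only, and within the unmarked libraries (without Old or New) or the Old/New libraries. Spry2, Spry4 and Etv4 stand higher in the Old/New libraries, the Dusp6 promoter row stands higher in the unmarked ones, and the Dusp5 row, the upstream Dusp5 region and regions 2 and 3 of Spry1 change side of 0 between subsets.

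Around the feedback genes, other regions within 100 kb of the first start site were read in the same fit. At Spry4 all 7 tested neighbours had a log2 fold change above 0 and 5 were called higher, with a median of 0.80. At Etv4 all 11 did and 3 were called, with a median of 0.39 beside the chromosome's own 0.41. At Dusp4 all 7 did and 0 were called, with a median of 0.35. At Dusp6 4 of 5 were above 0, the lowest at -0.09, and at Spry1 3 of 4, the lowest at -0.04, with 0 called at either. At Spry2, Spred1 and Dusp5 the single neighbour tested stood at 0.72, 0.34 and 0.30, and at Etv5 both were above 0 and 1 was called. Over all tested regions 2.14% were called higher and 48.2% were above 0. Whether the neighbours differ from the members was not tested.

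The wider pathway was read at the promoter rows of 3 lists. Of 22 other inhibitors of receptor tyrosine kinases and ERK, 13 had a tested row, with a median log2 fold change of 0.01. The highest in level were Dusp2, a nuclear MAP kinase phosphatase at -0.002, and Rasa2, a GTPase-activating protein for RAS at -0.003. Dusp2 averaged 85.3 ± 11.6 CPM in DKO (SD, n = 4) and 85.2 ± 8.06 CPM in WT (SD, n = 5). Of 27 genes of the cascade from FGF to ERK, 9 had a tested row, with a median of 0.17, Fgfr4 at 0.11 and the kinase Braf at 0.21. Of 21 nuclear effectors and immediate early genes, 15 had a tested row, with a median of 0.23, Fos at 0.26 and Fosl1 at 0.01.

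By edgeR, 0 genes of the 3 lists were called higher or lower. Rows at an unadjusted p under 0.05 by edgeR numbered 2 of 13, 2 of 11 and 7 of 17, beside 3339 of all 32647 tested rows. Of the 7, only Egr2 stood below 0, at -0.40 with SE 0.16. By DESeq2 0 genes were called, with 2, 1 and 7 such rows. Picked after their values were seen, Il17rd, a transmembrane inhibitor of FGF signalling, stood at 1.04 with SE 0.32 (edgeR adjusted p = 0.114) and Myc at 0.69 with SE 0.21 (edgeR adjusted p = 0.0915). At Il17rd every DKO library lay above every WT library, as in 1.74% of all tested rows. Its row stood at 11.2 to 17.5 CPM in DKO and at 1.26 to 9.88 CPM in WT. It thus passed the low-count filter mainly through DKO, so its direction was partly set by the filter. At Myc, WT replicate 1 stood at 39.2 CPM, the other WT libraries at 13.8 to 17.9 CPM and DKO at 24.4 to 39.5 CPM. Only 1 DKO library lay above every WT library there, and the Myc row keeps 1500 bases of its own.

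Rows that followed Spry2 and Dusp6 most closely were ranked by Pearson r of log2 CPM over the 9 H3K27me3 libraries, among 27988 rows. For Spry2 they were Gm11524 (r = 0.97), Tspan10 (0.97), Cacng5 (0.97) and Osbp2 (0.96), all on chromosome 11, and Gm28643 (0.96) on chromosome 2. For Dusp6 they were Epb41l4a (0.98) on chromosome 18, Gm47715 (0.95) on chromosome 10, Dlc1 (0.95) on chromosome 8 and Bcas3os1 (0.94) and Gm12206 (0.93) on chromosome 11. The points share libraries, genotype and depth, so r is a description. Among the members, r was 0.82 between Spry2 and Dusp6, 0.85 between Spry2 and the first row of Etv5, and 0.33 between Spry2 and Dusp5.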

How the data were processed

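H3K27me3 and total H3 were measured by ChIP-seq in DKO and WT libraries, grouped by their labels. The authors deposited raw read counts per promoter row and per region, with no normalization, in columns tagged b6, with no statement on reads of the CAST alleles. Per the file headers, promoter counts were made with featureCounts 2.0.3, unstranded, and reads on more than 1 row were not counted. The submitters' processing notes name Bowtie2, MACS2, bedtools, Subread and featureCounts, without roles, and build mm10. How the regions were called, and from which libraries, is not stated in them.

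Rows of chromosomes M and Y were left out, which left 75777 of 77527. Member regions are those that share at least 1 bp with a member's promoter row. Counts were tested, two-sided, with edgeR 4.0.16 (R 4.3.3) by its quasi-likelihood F test with no covariate, after filterByExpr (minimum count 10, minimum total 15) and TMM scaling, over the whole table, with Benjamini-Hochberg adjustment and calls at an adjusted p under 0.05. The SE is the log2 fold change divided by the root of F. The ratio of H3K27me3 to total H3 came from 1 fit of 13 libraries with 4 group means. DESeq2 1.42.0 was an alternative, where an adjusted p given as NA stayed NA, as for the Spry2 row, the second Etv5 row and 3 Spry1 regions. Other alternatives were library totals, no filter, the replicate number as a block, a term for sets, an offset for chromosome 11, and subsets of libraries. The fits were also run on simulated data with changes of 1.5, 2 and 3 fold. The shares recovered were 13.4%, 56.7% and 83.3% for promoters and 22.4%, 65.7% and 90.9% for regions. For total H3 they were 5.97%, 32.8% and 65.2%, and for H3K27me3 over total H3 in WT 2.99%, 7.46% and 42.4%. Figures used Python 3.11.15, numpy 2.4.6, pandas 2.3.3 and matplotlib 3.10.9.

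Members and gene lists were chosen with earlier results of these data known. Pathway genes were to be named where called, and otherwise the 2 tested genes of each list with the highest mean CPM, and the most alike rows are 5 for each of Spry2 and Dusp6 among rows at 10 CPM or more. No 2 libraries held identical counts. Precision is limited by the counts behind each value, and 10 of the 16 promoter rows were not tested.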

Additional observations from a re-analysis of the deposited data

Results flagged for a closer look

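Single WT libraries stood far from the other 4 in 4 of the 30 groups of member values examined, where chance flags about 1 in 20. At the second Etv5 promoter row, WT replicate 1 stood at 12.5 CPM and the other WT libraries at 4.94 to 6.56 CPM. WT replicate 3 was the distant one in the other three, all sums over a gene's regions. It stood at 6.0 CPM at Spry2, where the others were at 2.24 to 3.21 CPM, at 25.0 CPM at Spry4, where the others were at 11.5 to 13.5 CPM, and at 19 CPM at Dusp6, where the others were at 8.41 to 11.1 CPM. In each of these cases the WT library lay toward the DKO values. The 3 sums share libraries and are not independent of each other.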

How the results depend on the processing

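No member value changed direction while past the threshold. Among promoters, 205 rows were called (edgeR), and 134 without the filter, 388 with a term for sets, 104 with the chromosome 11 offset, 101 with WT of one name stem (replicates 1, 4 and 5, which leaves out WT replicate 3), 22 in the unmarked libraries, 57 in the Old/New libraries and 55 to 239 with 1 library left out (lowest without DKO replicate 2, highest without WT replicate 1). Among regions, 1622 were called (866 higher, 756 lower; with library totals 1372 and 485), and 770 by DESeq2, 915 with the offset, 879 with one WT stem, 145 unmarked, 692 Old/New and 621 to 2882 with 1 library left out (lowest without DKO replicate 3, highest without WT replicate 1). Total H3 gave 4 calls, 0 by DESeq2, 2 without the filter and 0 to 4 with 1 library left out. H3K27me3 over total H3 gave 4854 calls in WT (4273 higher, 581 lower), 10539 with library totals (2194 higher, 8345 lower) and 3494 to 4903 with 1 library left out, and 4295 in DKO (4084 higher, 211 lower), and 5488 with library totals (1981 higher, 3507 lower). The difference of that ratio gave 1 call, 0 by DESeq2 and 0 to 2 with 1 library left out.

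With the replicate number as a block, promoter calls were 101 and region calls 961. Same-numbered libraries did not deviate together (correlations of -0.03 to 0.07), so the numbers showed no pairing of the samples. Low counts per row could hide a pairing, so these correlations cannot exclude it. The block left 3 of 6 member promoter rows and 7 of 15 member regions called.

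With 1 library left out, log2 fold changes stayed within 1.31 to 1.71 at Spry2, 1.04 to 1.32 at the Dusp6 row, 0.84 to 1.03 at the first Etv5 row, 0.41 to 0.60 at the Dusp4 row, 0.85 to 1.39 at Spry4 and 1.16 to 1.49 at the downstream Etv4 region. The first Spred1 region lost its call with WT of one name stem (0.55). Spry1 region 4 gained one with library totals (0.59). Causes were not tested. The fits within subsets hold 2 libraries in a group, and total H3 counts are low, so a missing call there says little about the size of a difference.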
